A study of Homo sapiens with 5 samples.

Results

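The genes described here are 10 regulators of the G1 phase of the cell cycle, chosen by name from the 27328 Ensembl genes of the count table. They are the D-type cyclins *CCND1*, *CCND2*, and *CCND3*, the E-type cyclins *CCNE1* and *CCNE2*, the cyclin-dependent kinases *CDK4* and *CDK6*, and the inhibitors *CDKN1A*, *CDKN1B*, and *CDKN2C*. Their levels were compared between TF-1 cells with and without *MTSS1*, a gene for a membrane and actin regulatory protein. TF-1 is a human acute myeloid leukemia (AML) line that was grown with GM-CSF, the growth factor on which it depends.

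RNA-seq counts were available for 5 libraries. The control group held 2 libraries, from sgCtrl pools 1 and 2, transduced with Cas9, GFP, and an sgRNA against Renilla luciferase, a gene that human cells lack. The 3 knockout libraries came from cells transduced with the same lentiviral vector and with sgMTSS1_1, sgMTSS1_2, or sgMTSS1_3, respectively. Each library was 1 pool of 4 single-cell clones, so that a replicate is a pool, and in the knockout group each replicate also has an sgRNA of its own. The authors left out another control pool and an sgMTSS1_4 pool after an outlier test, and these were not analysed here. The labels name no drug treatment in either group.

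In G1, mitogens raise D-type cyclins, which bind CDK4 or CDK6 and begin the phosphorylation of the retinoblastoma protein RB1. E-type cyclins with CDK2 complete it, E2F factors are released, and the genes for DNA synthesis are transcribed. INK4 inhibitors such as CDKN2C (p18) bind CDK4 and CDK6, whereas CIP/KIP inhibitors such as CDKN1A (p21) and CDKN1B (p27) bind cyclin-CDK complexes. Several of these proteins are controlled mainly by degradation, which mRNA counts do not show.

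The libraries differed in ways that followed the groups. Control libraries held 2849979 and 3408827 counts, and knockout libraries 5442639 to 8854899. Ribosomal protein genes took 7.56% to 9.30% of the counts in control and 11.9% to 17.7% in knockout libraries, and mitochondrially encoded genes 8.63% to 13.9% and 6.71% to 7.44%, respectively. The part of these differences in the results below was not tested, apart from a repeat with all libraries thinned to the smallest total. All 8 markers of the TF-1 line, among them *CD34*, *CD33*, and *GATA1*, were detected in every library and summed to 576 to 844 counts per 1000000 counts (CPM). The markers of T cells, B cells, mature monocytes and granulocytes, epithelial cells, and fibroblasts that were in the table summed to at most 11.6 CPM per cell type. *MTSS1* mRNA stood at 204 and 87.9 CPM in control pools 1 and 2 and at 104, 139, and 49.9 CPM in the pools of sgMTSS1_1, sgMTSS1_2, and sgMTSS1_3. These values overlapped between the groups (log2-fold change −0.58, edgeR adjusted p = 0.494). An edited gene can still be transcribed, and the authors checked the loss of protein by immunoblot, so the mRNA does not verify the labels here.

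Of the 10 genes, 9 passed the filter on low counts and were tested, and *CDK4* did not pass it. By the quasi-likelihood test of edgeR, with p-values adjusted after Benjamini and Hochberg across 14391 tested genes, 0 of the 9 passed both thresholds, an adjusted p under 0.05 and a log2-fold change beyond 1 in either direction. DESeq2 also called 0. Over all tested genes, 745 passed, or 5.18%, of which 600 (4.17%) were higher and 145 (1.01%) lower in the knockout pools. An unadjusted p under 0.05 was reached by 2 of the 9, *CDKN1B* and *CDKN2C*, as against 23.3% of all tested genes. In *CCND2* and *CDKN1B* every knockout pool lay above both control pools, and in *CDKN2C* every one lay below. These 3 of 9 stood beside 41.4% of all tested genes without overlap, made up of 22.2% above and 19.2% below. The 9 genes had a median log2-fold change of 0.00, or 0.36 without control pool 1, and all tested genes of −0.03. Scaling by library size alone moved the latter to −0.17, so that fold changes are best read relative to it.

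**Figure D1:**
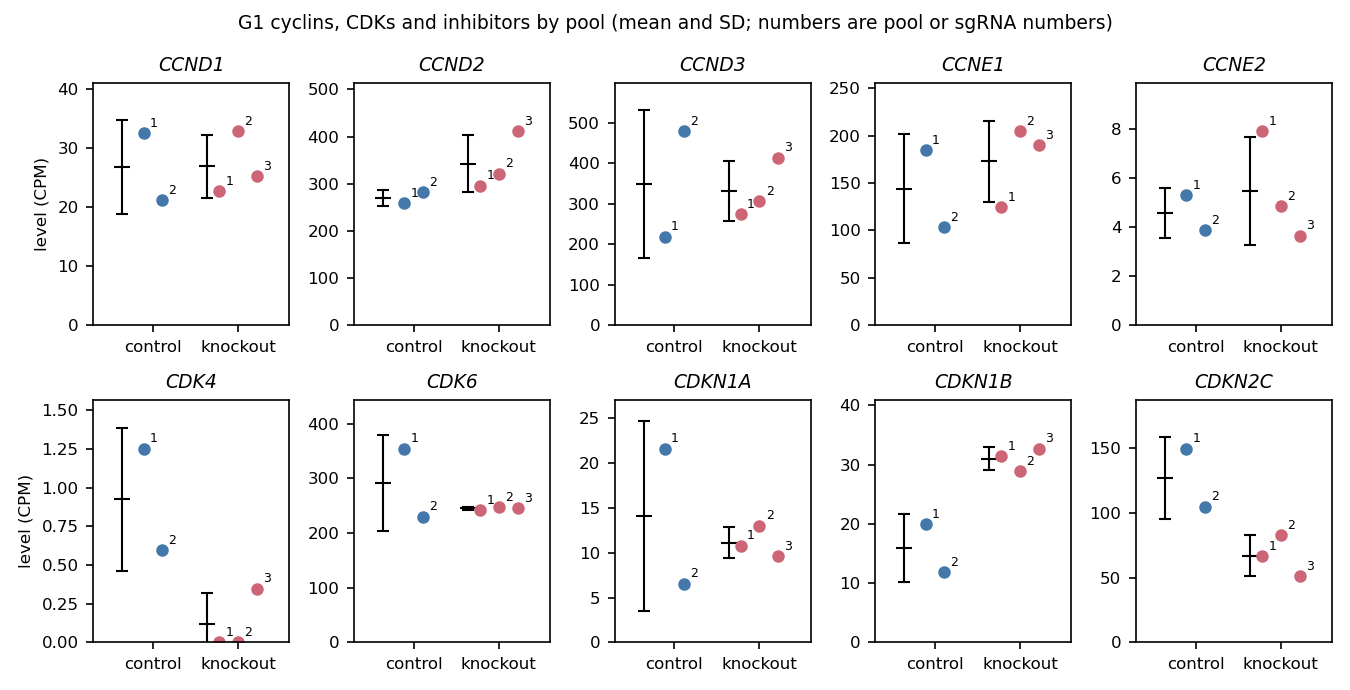
Level of each of the 10 G1 genes in CPM (vertical axes, linear, each with its own range) in the 2 control pools (blue) and 3 *MTSS1* knockout pools (red), with the pool or sgRNA number beside each point and the mean ± SD as a black bar to the left. The knockout pools of *CDKN1B* lie between 28.9 and 32.7 CPM, above both control pools, and those of *CDKN2C* between 51.2 and 83.2 CPM, below both.

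The sequences of the promoters of both inhibitors are shown because these were the tested genes with the smallest p-values, together with that of *CDKN2D*, the inhibitor gene of the same family as *CDKN2C* with the largest difference described further on. All are from RefSeq on GRCh38.p14 and run from 250 bases before to 50 bases after a transcription start, on the strand of the gene. *CDKN1B* is at chr12:12717118-12717417 (plus strand), the first of 3 starts of *CDKN2C* at chr1:50960495-50960794 (plus strand), and *CDKN2D* at chr19:10568930-10569229 (minus strand). Capitals mark matches, on either strand, to an E2F site (TTTCCCGC, TTTCGCGC, TTTGCCGC, or TTTGGCGC), an E-box (CACGTG), a FOXO site (GTAAACA), the GC box (GGGCGG), or a cell cycle homology region (CHR, TTTGAA).
CDKN1B: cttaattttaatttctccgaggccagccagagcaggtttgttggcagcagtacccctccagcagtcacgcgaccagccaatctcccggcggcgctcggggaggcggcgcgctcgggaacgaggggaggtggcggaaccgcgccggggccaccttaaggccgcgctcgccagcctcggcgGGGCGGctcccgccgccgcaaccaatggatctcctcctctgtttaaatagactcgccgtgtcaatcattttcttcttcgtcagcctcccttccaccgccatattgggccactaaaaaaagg
CDKN2C: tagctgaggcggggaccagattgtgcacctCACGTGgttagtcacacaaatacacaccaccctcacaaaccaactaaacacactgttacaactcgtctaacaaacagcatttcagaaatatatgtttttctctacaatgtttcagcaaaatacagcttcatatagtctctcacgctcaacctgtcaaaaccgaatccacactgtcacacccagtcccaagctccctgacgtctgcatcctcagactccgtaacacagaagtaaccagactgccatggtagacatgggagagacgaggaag
CDKN2D: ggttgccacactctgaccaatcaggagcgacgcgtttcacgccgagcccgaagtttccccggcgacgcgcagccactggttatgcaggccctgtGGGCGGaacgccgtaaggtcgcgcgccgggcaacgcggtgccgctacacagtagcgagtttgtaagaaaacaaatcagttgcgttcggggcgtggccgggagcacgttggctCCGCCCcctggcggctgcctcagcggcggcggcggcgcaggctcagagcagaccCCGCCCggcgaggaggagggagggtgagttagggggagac
The *CDKN1B* window held 1 GC box, 71 bases before the start. The *CDKN2C* window held 1 E-box, 220 bases before the start, whereas its 2 other starts had 6 GC boxes in one case and 1 E-box and 1 GC box in the other. The *CDKN2D* window held 3 GC boxes. No matches overlapped in the windows shown, and 3′ counts do not tell which start was used.

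Of the 10 genes, 7 had promoters in the RefSeq table used here. All 7 held a GC box in at least 1 window, as did 45.0% of the 35116 promoters in the table. An E-box was present in 3 of the 7, *CDK4*, *CDK6*, and *CDKN2C*, and in 7.26% of all promoters. A FOXO site was found in *CCND3* alone among the 7, beside 3.42% of all promoters. The E2F letters occurred in 0 of the 7 and in 3.31% of all promoters, and the CHR in 0 of the 7 and in 15.2%. Genes with several starts had more windows in which a match could occur, so the shares are not on the same footing.

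*CCND2* was the D-type cyclin with the largest difference. The D-type cyclins are the regulatory subunits through which growth factor signals reach *CDK4* and *CDK6*. *CCND2* (ENSG00000118971, GRCh38 chr12:4269771-4305353, plus strand) stood at 259 and 282 CPM in control pools 1 and 2 and at 296, 322, and 411 CPM in the pools of sgMTSS1_1, sgMTSS1_2, and sgMTSS1_3. The 3 knockout pools were thus all above the control pools, with the sgMTSS1_1 pool close to control pool 2. The mean of the control pools was 270 ± 16.7 CPM (SD, n = 2) and that of the knockout pools 343 ± 60.3 CPM (SD, n = 3), for a log2-fold change of 0.34 ± 0.30 (SE) and an edgeR adjusted p of 0.543. The 95% interval, −0.34 to 1.02, holds no change as well as a doubling.

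*CCND3* (ENSG00000112576, chr6:41934934-42050357, minus strand), a D-type cyclin with roles in blood cell development, was the one of the 3 that differed most between the control pools themselves. It stood at 219 and 478 CPM in control pools 1 and 2 and at 274, 305, and 414 CPM in the knockout pools in the same order as above. All 3 knockout pools lay between the control pools, and the log2-fold change was −0.07 ± 0.39 (SE), with an interval from −0.95 to 0.80 and an edgeR adjusted p of 0.932. The direction rested on the control pool used, since the log2-fold change was −0.52 without control pool 1 and 0.63 without control pool 2.

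*CCND1* (ENSG00000110092, chr11:69641156-69654474, plus strand) was the least abundant D-type cyclin in every library. It stood at 32.5 and 21.2 CPM in control and at 22.7, 32.9, and 25.2 CPM in knockout pools. Both groups spanned the same range, and the log2-fold change was 0.00 ± 0.34 (SE), interval −0.75 to 0.76, edgeR adjusted p = 0.996. It turned negative under other scalings, −0.01 with the size factors of DESeq2 and −0.14 with library size alone, and ran from −0.25 without control pool 2 to 0.36 without control pool 1. Of the 500 bases at the 3′ end of *CCND1*, from which these reads come, 253 are overlapped by exons of *LTO1* on the opposite strand. *LTO1*, a gene of ribosome biogenesis named here for that overlap, stood at 7.5 and 10.1 CPM in control and at 34.5, 21.8, and 25.6 CPM in knockout pools (log2-fold change 1.63, edgeR adjusted p = 0.0402). Whether the authors counted by strand is not given in the sources used here, and the part of *LTO1* reads in the *CCND1* counts was not tested.

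Summed over the 3 genes, D-type cyclin mRNA stood at 510 and 782 CPM in control and at 593, 660, and 850 CPM in knockout pools, with overlap. Because a 3′ library yields reads from the end of a transcript whatever its length, counts of different genes can be set beside each other without dividing by length, although genes can still differ in how well their ends are captured. *CCND2* made up 50.7% (95% Wilson interval 48.3 to 53.1) of the D-type cyclin counts in control pool 1 and 36.1% (34.3 to 38.0) in control pool 2. In the knockout pools its share was 49.9% (48.5 to 51.4), 48.7% (47.1 to 50.4), and 48.3% (46.9 to 49.7). The 3 knockout pools thus had nearly the same balance of *CCND2* and *CCND3*, as did control pool 1, and control pool 2 stood apart. These intervals cover counting error only.

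Neither E-type cyclin passed the test. E-type cyclins bind *CDK2* and drive the entry into S phase. *CCNE1* (ENSG00000105173, chr19:29811991-29824312, plus strand) stood at 184 and 104 CPM in control and at 125, 204, and 190 CPM in knockout pools. The pools of both groups overlapped, for a log2-fold change of 0.26 ± 0.36 (SE), interval −0.54 to 1.07, edgeR adjusted p = 0.708. It was −0.06 without control pool 2. *CCNE2* (ENSG00000175305, chr8:94879770-94896678, minus strand) was scarcer, at 17 and 13 counts in control and 61, 27, and 21 counts in knockout libraries. In CPM these were 5.32 and 3.87 in control and 7.91, 4.87, and 3.65 in knockout pools, so that the sgMTSS1_3 pool was the lowest of all and the sgMTSS1_1 pool the highest. The log2-fold change was 0.27 ± 0.51 (SE), interval −0.87 to 1.40, edgeR adjusted p = 0.795, and it was −0.12 without the sgMTSS1_1 pool. All 500 bases at the 3′ end of *CCNE2* are overlapped by exons of *INTS8* on the opposite strand.

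*CDK6* was the main G1 kinase in these counts, and *CDK4* was close to absent from them. *CDK4* and *CDK6* are the catalytic partners of the D-type cyclins. *CDK6* (ENSG00000105810, chr7:92604921-92836573, minus strand) stood at 355 and 230 CPM in control and at 243, 248, and 246 CPM in knockout pools. The knockout pools were nearly equal, with a mean of 245 ± 2.68 CPM (SD, n = 3), and lay between the control pools, whose mean was 292 ± 88.04 CPM (SD, n = 2). The log2-fold change was −0.25 ± 0.31 (SE), interval −0.94 to 0.44, edgeR adjusted p = 0.669, and it was 0.10 without control pool 1.

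*CDK4* (ENSG00000135446, chr12:57747727-57756013, minus strand) had 4 and 2 counts in control and 0, 0, and 2 counts in knockout libraries, and did not pass the filter on low counts. A library with 0 counts allows a level of up to 3 counts, which is 0.389 CPM in the sgMTSS1_1 and 0.542 CPM in the sgMTSS1_2 library. No fold change is given for such values. All 500 bases at the 3′ end of *CDK4* are overlapped by exons of *TSPAN31* on the opposite strand, a gene that itself had 10 and 21 counts in control and 26, 14, and 16 counts in knockout libraries. How reads in such overlaps were assigned is not given in the sources used here, and the part of the overlap in the *CDK4* counts was not tested. GENCODE also names 1 pseudogene after *CDK4*, and the authors removed reads that mapped to several places. The part of such reads in the low counts was not tested.

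**Figure D2:**
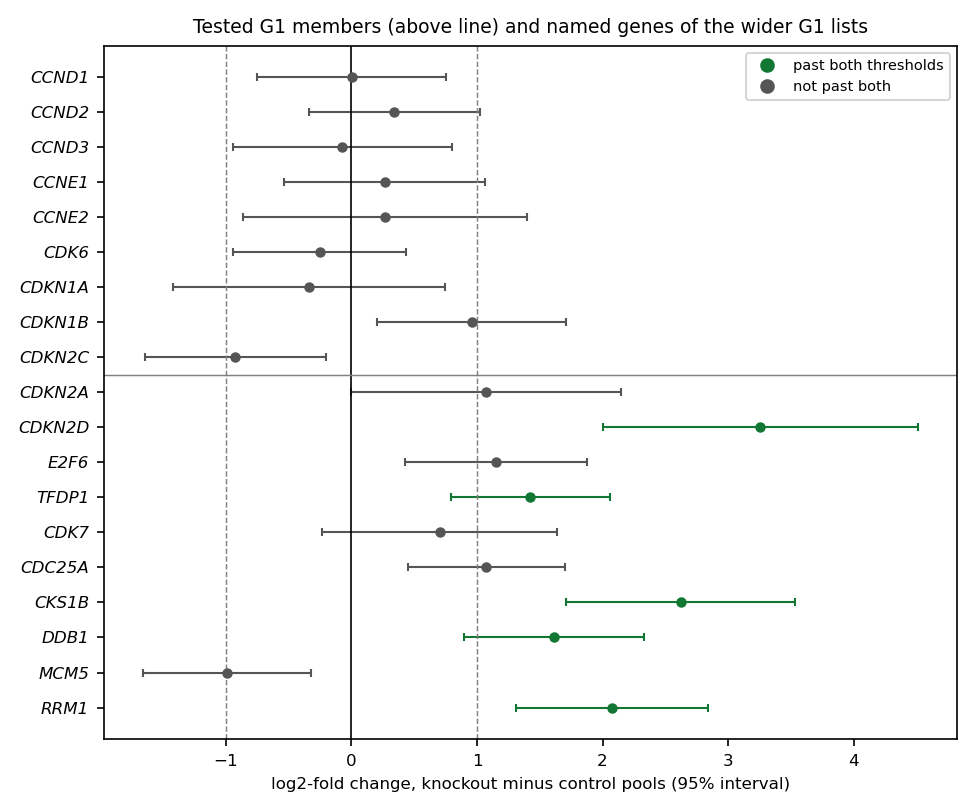
Log2-fold change, knockout minus control pools (horizontal axis), with 95% intervals, for the 9 tested G1 genes above the grey line and for the named genes of the wider lists under it. Green marks genes past both thresholds and dashed lines a log2-fold change of −1 and 1; the intervals of *CDKN1B* and *CDKN2C* alone among the 9 leave out 0, and *CDKN2D* has the largest change, 3.26.

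The inhibitors held the largest differences among the 10 genes, in opposite directions. *CDKN1B* (ENSG00000111276, chr12:12685498-12722369, plus strand), which encodes p27, an inhibitor of cyclin E-*CDK2*, had 64 and 40 counts in control and 242, 160, and 188 counts in knockout libraries. Its level was 20.0 and 11.9 CPM in control and 31.4, 28.9, and 32.7 CPM in the pools of sgMTSS1_1, sgMTSS1_2, and sgMTSS1_3. The knockout pools lay within 1.13-fold of each other and all above the control pools. The control pools had a mean of 16.0 ± 5.72 CPM (SD, n = 2) and the knockout pools one of 31.0 ± 1.94 CPM (SD, n = 3), 1.94-fold higher, with a 95% interval of 1.15 to 3.27. The log2-fold change of 0.96 ± 0.34 (SE) had an unadjusted p of 0.0194 and an edgeR adjusted p of 0.132, and so did not pass. Without control pool 1 it was 1.39, with an edgeR adjusted p of 0.0491, and passed both thresholds. Over the 12 alternatives the log2-fold change lay between 0.66 and 1.39 and the adjusted p between 0.0491 and 0.295.

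*CDKN2C* (ENSG00000123080, chr1:50960745-50974634, plus strand), which encodes p18, an INK4 inhibitor of *CDK4* and *CDK6*, had 479 and 352 counts in control and 516, 461, and 294 counts in knockout libraries. Its level was 150 and 105 CPM in control and 66.9, 83.2, and 51.2 CPM in knockout pools, each knockout pool below both control pools. The control pools had a mean of 127 ± 31.7 CPM (SD, n = 2) and the knockout pools one of 67.1 ± 16.0 CPM (SD, n = 3), or 0.527 times the control level, with an interval of 0.319 to 0.871. The log2-fold change of −0.92 ± 0.32 (SE) had an unadjusted p of 0.0166 and an edgeR adjusted p of 0.122, which does not pass. Over the 12 alternatives it ran from −1.13 to −0.63, with adjusted p-values between 0.0804 and 0.405. In bulk libraries, fewer cells in a given phase of the cell cycle and less mRNA per cell cannot be told apart.

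*CDKN1A* (ENSG00000124762, chr6:36676460-36687337, plus strand), which encodes p21, an inhibitor of cyclin-*CDK2* complexes, stood at 21.6 and 6.56 CPM in control and at 10.8, 13, and 9.57 CPM in knockout pools. The control pools differed by 3.29-fold, more than for any other of the 9 tested genes, and the knockout pools lay between them. The log2-fold change was −0.34 ± 0.48 (SE), interval −1.42 to 0.74, edgeR adjusted p = 0.720. It was 0.77 without control pool 1 and −0.93 without control pool 2.

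Ratios of 2 genes within a library do not depend on how libraries are scaled, and are given as a description without a test. The counts of *CDKN1B* over those of *CDKN2C* were 0.134 and 0.114 in control and 0.469, 0.347, and 0.639 in knockout libraries, so that the lowest knockout ratio was 2.60 times the highest control ratio. Relative to *CDK6*, *CDKN1B* stood at 0.0564 and 0.0518 in control and at 0.129, 0.117, and 0.133 in knockout libraries. *CDKN2C* over *CDK6* was 0.422 and 0.456 in control and 0.276, 0.336, and 0.208 in knockout libraries. The groups were apart in all 3 ratios, with the control libraries close to each other in each. Since *CDKN1B* lay above and *CDKN2C* below the control pools in every knockout pool, their ratio had to be apart. Singly, 41.4% of all tested genes had no overlap, and the share of gene pairs with ratios apart was not computed.

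Among the 4 INK4 genes, *CDKN2C* held a smaller part of the counts in each knockout library than in either control library. Its share was 50.8% (95% Wilson interval 47.6 to 54.0) and 72.0% (67.8 to 75.8) in control libraries 1 and 2. In the knockout libraries it was 19.2% (17.8 to 20.8), 34.5% (32.0 to 37.0), and 19.7% (17.8 to 21.8). *CDKN2D*, which encodes p19, took 2.01% and 1.64% in control and 18.0%, 9.19%, and 13.2% in knockout libraries. *CDKN2A*, which encodes p16 and, in another reading frame, ARF, took 42.4% and 24.1% in control and 60.9%, 53.8%, and 62.9% in knockout libraries. In CPM, *CDKN2C* lay below both control pools in every knockout pool, and *CDKN2A* and *CDKN2D* lay above, so these shares restate those differences. Wilson intervals of family shares cover counting error only. The sum of the family did not separate the groups, at 295 and 146 CPM in control and 348, 242, and 260 CPM in knockout pools.

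Among the 3 CIP/KIP genes, *CDKN1B* took 33.9% (27.5 to 40.9) and 43.5% (33.8 to 53.7) of the counts in control and 52.8% (48.3 to 57.4), 50% (44.6 to 55.4), and 51.1% (46.0 to 56.2) in knockout libraries. The interval of control library 2, which rests on 92 counts, overlaps those of all 3 knockout libraries. *CDKN1A* took 36.5% and 23.9% in control and 18.1%, 22.5%, and 14.9% in knockout libraries. Their sum with *CDKN1C*, which encodes p57, was 59.1 and 27.4 CPM in control and 59.4, 57.8, and 64.0 CPM in knockout pools, with control pool 1 among the knockout pools.

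**Figure D3:**
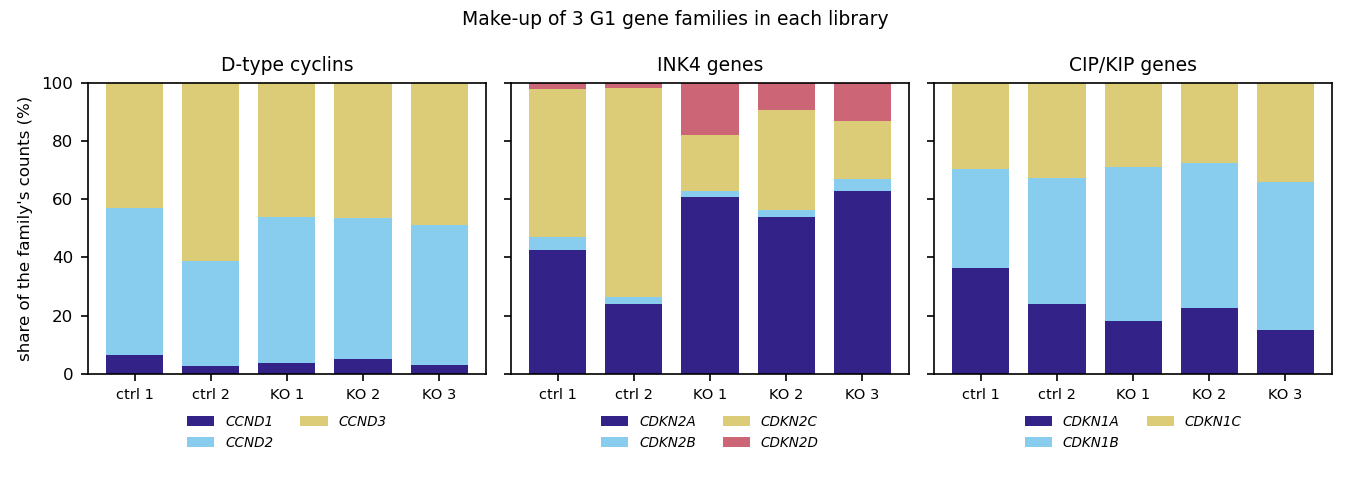
Share of each gene in the counts of its family (vertical axis, percent, bars stacked to 100) in control (ctrl) and knockout (KO) libraries, for D-type cyclins, INK4 genes, and CIP/KIP genes. *CDKN2C* makes up 50.8% and 72.0% of the INK4 counts in the control libraries and between 19.2% and 34.5% in the knockout libraries, where *CDKN2D* and *CDKN2A* take more.

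The rest of the G1 pathway was followed in 5 lists with 48 genes, of which 44 were tested. Past both thresholds were 5 of the 44, all higher in the knockout pools, and 0 were lower, beside 4.17% of all tested genes higher and 1.01% lower; DESeq2 called 8 higher and 0 lower. The count by edgeR was 0 without the sgMTSS1_1 pool, 3 without sgMTSS1_2, and 2 without sgMTSS1_3. In the same order, 107 genes were called higher and 4 lower of 13358 tested, 323 and 24 of 13419, and 183 and 8 of 13303. With all libraries, 600 and 145 of 14391 were called. An unadjusted p under 0.05 was reached by 11 of the 44, beside 23.3% of all tested genes. The 44 had a median log2-fold change of 0.24, which was 0.14 with library size alone, 0.65 without control pool 1, 0.17 without control pool 2, 0.07 without the sgMTSS1_1 pool, and 0.40 without the sgMTSS1_2 pool.

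Of 7 other cyclin, CDK, and inhibitor genes of G1 and S phase, 6 were tested, and 1, *CDKN2D*, passed. *CDKN2D* had 19 and 8 counts in control and 484, 123, and 197 counts in knockout libraries, or 5.94 and 2.38 CPM as against 62.8, 22.2, and 34.3 CPM. Every knockout pool was above both control pools, and the sgMTSS1_1 pool was the highest. The log2-fold change was 3.26 (interval 2.0 to 4.51), edgeR adjusted p = 0.0188. It was 2.75 without the sgMTSS1_1 pool, with an adjusted p of 0.0672, which does not pass. *CDKN2A* stood at 125 and 35.2 CPM in control and at 212, 130, and 163 CPM in knockout pools (log2-fold change 1.07, edgeR adjusted p = 0.228). It was 2.27 without control pool 1 (edgeR adjusted p = 0.0168) and 0.46 without control pool 2 (edgeR adjusted p = 0.464), so that its size rested on the control pool used. The median of the 6 tested genes was 0.40, and it was 1.16 without control pool 1 and 0.093 without control pool 2.

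Of 13 pocket protein and E2F genes, which act downstream of the G1 kinases, 12 were tested, and 1, *TFDP1*, passed. *TFDP1*, the dimerization partner of E2F factors, stood at 69.4 and 59.9 CPM in control and at 191, 174, and 157 CPM in knockout pools. It had a log2-fold change of 1.43 (0.79 to 2.06), edgeR adjusted p = 0.0276, and leaving out the sgMTSS1_1, sgMTSS1_2, or sgMTSS1_3 pool gave adjusted p-values of 0.0814, 0.0723, and 0.0805. *E2F6*, a repressor of the family, stood at 16.9 and 11.3 CPM in control and at 32.8, 29.97, and 31.1 CPM in knockout pools, log2-fold change 1.15, edgeR adjusted p = 0.0769. It was 1.48 without control pool 1 (edgeR adjusted p = 0.0414) and 0.92 without control pool 2 (edgeR adjusted p = 0.155), and with a knockout pool left out its adjusted p was 0.143 to 0.191. GENCODE names 3 pseudogenes after *TFDP1* and 4 after *E2F6*, which makes both levels less certain. It also names 1 after *CCND2*, 2 after *CCND3*, and 2 after *E2F3*, which is described further on. The 12 log2-fold changes ran from −1.18 to 1.43 with a median of 0.084, which was −0.021 with library size alone and 0.26 without control pool 2.

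*TFDP1* and *CKS1B*, described next, are shown with their promoters as genes of these lists that passed and whose windows held an E2F or CHR match, and *RRM1*, which passed as well, also held a CHR. *TFDP1* is at chr13:113584503-113584802 and *CKS1B* at chr1:154974431-154974730, both on the plus strand, with capitals as above.
TFDP1: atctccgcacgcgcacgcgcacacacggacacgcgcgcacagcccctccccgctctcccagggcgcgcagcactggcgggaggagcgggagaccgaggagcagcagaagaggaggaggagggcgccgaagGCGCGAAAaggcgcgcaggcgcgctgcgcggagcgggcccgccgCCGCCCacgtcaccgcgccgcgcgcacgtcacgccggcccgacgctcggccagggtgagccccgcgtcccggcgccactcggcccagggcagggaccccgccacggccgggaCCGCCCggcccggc
CKS1B: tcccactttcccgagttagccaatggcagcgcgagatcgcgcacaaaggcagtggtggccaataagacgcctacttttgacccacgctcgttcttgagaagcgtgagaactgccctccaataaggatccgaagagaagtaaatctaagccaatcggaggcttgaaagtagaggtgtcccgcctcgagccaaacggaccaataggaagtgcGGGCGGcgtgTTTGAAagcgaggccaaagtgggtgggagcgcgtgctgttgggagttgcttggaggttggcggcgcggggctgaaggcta
The *TFDP1* window held 1 E2F match (GCGCGAAA, the reverse complement) 120 bases before the start and 2 GC boxes. The *CKS1B* window held 1 CHR 30 bases and 1 GC box 40 bases before the start. Over all promoters, 3.31% held an E2F match and 15.2% a CHR. The windows of *CDKN2D* and *DDB1*, which also passed, held neither. E2F matches were also found in genes of the lists that did not pass, among them *MCM3*, *MCM6*, and *RBL1*. A tie between such matches and the differences was not tested.

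Of 9 genes for ubiquitin ligases that degrade G1 cyclins and p27, all were tested, and 2, *CKS1B* and *DDB1*, passed. *CKS1B*, the cofactor with which *SKP2* recognizes p27, stood at 6.25 and 5.36 CPM in control and at 51.0, 28.2, and 28.2 CPM in knockout pools, log2-fold change 2.62 (1.71 to 3.53), edgeR adjusted p = 0.0138. GENCODE names 7 pseudogenes after *CKS1B*, and the authors removed reads that mapped to several places, so its level is uncertain. Without the sgMTSS1_1 pool the adjusted p was 0.0540. *DDB1*, the adaptor of the ligases that use *AMBRA1* against D-type cyclins, stood at 77.2 and 122 CPM in control and at 352, 268, and 294 CPM in knockout pools, log2-fold change 1.61 (0.89 to 2.33), edgeR adjusted p = 0.0294. Leaving out the sgMTSS1_1, sgMTSS1_2, or sgMTSS1_3 pool gave it adjusted p-values of 0.0951, 0.0702, and 0.0978. The ratio of *CKS1B* to *SKP2* counts was 0.370 and 0.857 in control and 2.18, 1.59, and 1.27 in knockout libraries. The median of the 9 genes was 0.44, and 0.67 without control pool 1.

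Of the 5 CDK-activating genes, 0 passed by edgeR, 1 had an unadjusted p under 0.05, and 1 was called by DESeq2. *CDC25A*, the phosphatase that removes inhibitory phosphates from *CDK2*, stood at 43.5 and 40.2 CPM in control and at 80.3, 88.6, and 95.3 CPM in knockout pools. It had a log2-fold change of 1.07 (0.45 to 1.70), with an edgeR adjusted p of 0.0618 and a DESeq2 adjusted p of 0.0215. *CDK7*, the kinase of the CDK-activating complex, stood at 8.13 and 7.15 CPM in control and at 17.6, 9.57, and 9.92 CPM in knockout pools, log2-fold change 0.70, edgeR adjusted p = 0.356.

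Of 14 E2F-regulated genes of S phase, 12 were tested, and 1, *RRM1*, passed. *RRM1*, the large subunit of ribonucleotide reductase, stood at 98.5 and 52.7 CPM in control and at 361, 306, and 290 CPM in knockout pools, log2-fold change 2.08 (1.31 to 2.84), edgeR adjusted p = 0.0182. The adjusted p was 0.0677 without the sgMTSS1_1 and 0.0519 without the sgMTSS1_3 pool. *MCM5*, a subunit of the replicative helicase, stood at 123 and 139 CPM in control and at 51.5, 79.1, and 67.0 CPM in knockout pools, log2-fold change −0.99, edgeR adjusted p = 0.0845. Of the 12, 8 had a log2-fold change below 0, and the median was −0.27. Without control pool 2, 13 genes were tested, of which 7 were below and 6 above 0, with a median of −0.013.

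**Figure D4:**
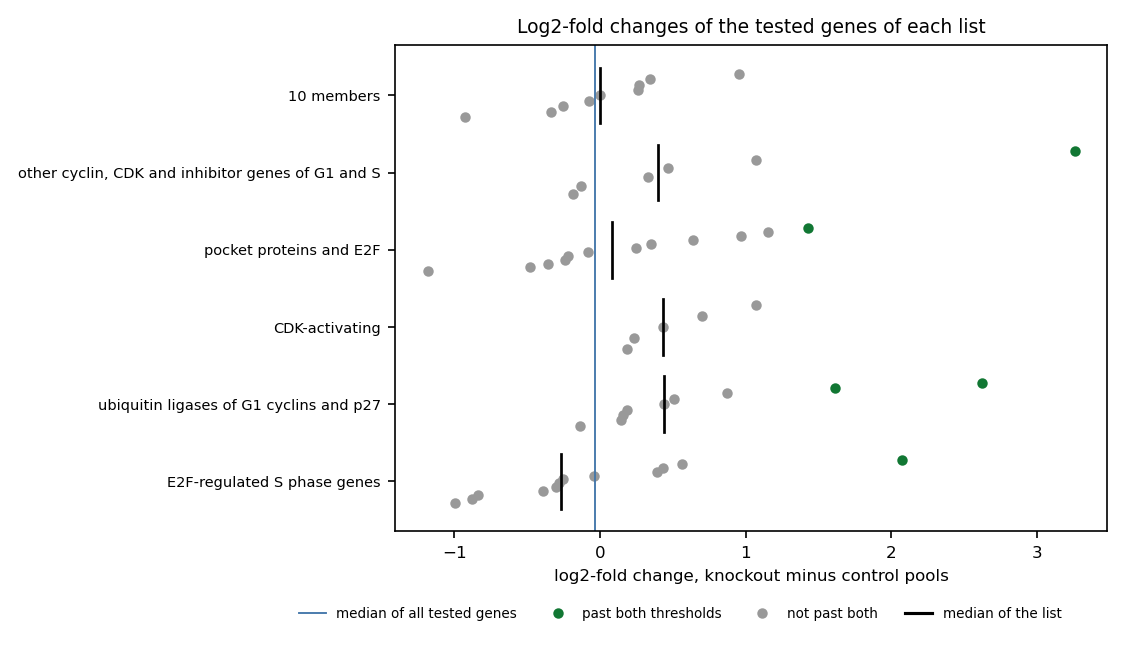
Log2-fold change, knockout minus control pools (horizontal axis), of each tested gene of the 10 members and of the 5 wider lists, with the median of each list as a black bar and that of all tested genes as a blue line. Green points, all to the right of 1, are the 5 genes past both thresholds; the members lie between −0.92 and 0.96.

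The direction of the members was followed with each library left out. *CCND2* and *CDKN1B* were higher in the knockout pools and *CDKN2C* was lower under all 12 alternatives. These 3 were the members without overlap between the groups, so leaving out a library could hardly change their sign. Lack of overlap held for 41.4% of all tested genes. The sign of the other 6 tested members changed under at least 1 alternative. For both *CDKN1B* and *CDKN2C* the lowest and the highest value came with a control pool left out. For *CDKN1B*, leaving out control pool 2 gave a log2-fold change of 0.66, and leaving out a knockout pool gave values from 0.94 to 1.06. For *CDKN2C*, the log2-fold change was −0.63 without control pool 1, −1.13 without control pool 2, and between −1.06 and −0.72 with a knockout pool left out. With all libraries thinned to the smallest total, *CDKN1B* was at 0.80 (edgeR adjusted p = 0.248) and *CDKN2C* at −0.97 (edgeR adjusted p = 0.145).

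**Figure D5:**
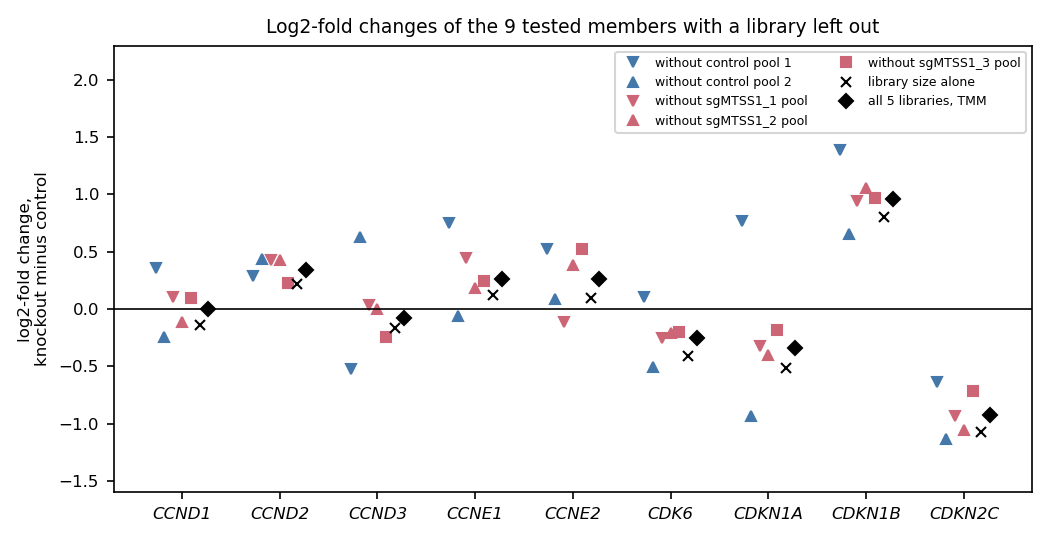
Log2-fold change, knockout minus control pools (vertical axis), of the 9 tested G1 genes with all 5 libraries (black diamonds), with each library left out (blue for control, red for knockout pools), and with scaling by library size alone (crosses). *CDKN1B* stays between 0.66 and 1.39 and *CDKN2C* between −1.13 and −0.63, while *CCND3* runs from −0.52 to 0.63.

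*CDKN2C* was the member with the smallest p, and 3 of 8623 genes with a mean of at least 10 CPM had the most similar pattern over the 5 libraries. The measure was the root mean square difference of log2 CPM after centring each gene on its own mean. It was 0.0695 for *KDM6A*, a histone demethylase gene, which stood at 23.8 and 16.1 CPM in control and at 11.4, 13.2, and 8.70 CPM in knockout pools. It was 0.0937 for the pseudogene *EIF2S2P1* and 0.114 for *PARP4*, an ADP-ribosyltransferase gene, at 34.4 and 24.4 CPM in control and 17.1, 18.8, and 14.1 CPM in knockout pools. With 5 libraries in 2 groups, such likeness is a description of these libraries.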

How the data were processed

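TF-1 libraries were prepared by the authors with a QuantSeq 3′ kit (forward), and single-end reads were trimmed with BBDuk, aligned to GRCh38 with HISAT2 2.1.0, and filtered with SAMtools 1.10 to keep uniquely mapped reads, with versions from the submitters' processing notes. The deposited values are whole-number counts per Ensembl gene, without normalization by the authors. How reads were counted (program, annotation, strand, PCR duplicates) is not given in the sources used here. Groups were taken from the sample labels, and all 5 count columns were used. Clones were verified by the authors by immunoblot.

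Counts were analysed with edgeR 4.0.16 in R 4.3.3. Of 27328 genes, 14391 passed filterByExpr with a minimum count of 10, and were scaled with TMM (factors 0.876 to 1.13). The quasi-likelihood model held the condition alone, with Benjamini-Hochberg adjustment across the tested genes. Standard errors came from the fitted model and its moderated dispersion, and 95% intervals from the t distribution. CPM are counts per 1000000 of the TMM-scaled library size. Replicate libraries of a group differed by more than sampling noise (chi-square per degree of freedom 8.81 to 40.6). The test was also checked for recovery of 4-fold changes in 200 genes, on counts simulated from the means, library sizes, and fitted dispersion trend of these libraries. Smaller changes, such as those of the members, were not simulated.

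The members and gene lists, the tests, and the alternatives were chosen with earlier results of these data known. Named genes were the 10 members, *MTSS1*, the genes of each wider list that passed and the 2 with the smallest p, and the 3 genes most like the member with the smallest p; others are identified where they appear. Another list was drawn up and is not reported here. Alternatives were DESeq2 1.42.0, its size factors, library size alone, no filter, at least 10 counts in every library, thinning to the smallest total, a replicate block, and each library left out. Positions and 3′ overlaps are from GENCODE 44, in which 27211 genes of the table have a symbol, and promoters from RefSeq on GRCh38.p14. Python 3.11.15 was used for tables and figures.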

Additional observations from a re-analysis of the deposited data

How the results depend on the processing

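Counts over all tested genes moved with the settings. Higher in the knockout pools were 600 genes, 1173 without a filter, 1034 with DESeq2, and 107 to 917 with a library left out. Lower were 145 genes, 232 with library size alone, 82 after thinning, 238 with DESeq2, and 4 to 432 with a library left out. Among these, the fewest calls were made without the sgMTSS1_1 pool, and the most without control pool 1. The fits with a control pool left out assume that the lone control library varied like the others. The number of members past both thresholds was 0 to 1 with a library left out, the 1 being *CDKN1B* without control pool 1 (log2-fold change 1.39), and 0 under all other settings. The filter on low counts removed *CDK4*, which DESeq2 and the fit without a filter kept and did not call.

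Signs changed for members near 0. *CCND1* was at −0.0079 with DESeq2 size factors, −0.14 with library size alone, −0.062 after thinning, and between −0.25 and 0.36 with a library left out. *CCND3* was at 0.077 without a filter and between −0.52 and 0.63 with a library left out. The median of all tested genes was 0.113 without a filter, as against −0.032 with it. With a library left out, *CCNE1* ran from −0.065 to 0.75, *CCNE2* from −0.12 to 0.53, *CDK6* from −0.50 to 0.10, *CDKN1A* from −0.93 to 0.77, and *MTSS1* from −1.04 to 0.16. The cause was not tested.

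With the sgRNA or pool number as a replicate block, 894 genes were higher and 200 lower, *CDKN1B* was at 0.95 (edgeR adjusted p = 0.224), and *CDKN2C* at −0.75 (edgeR adjusted p = 0.315). Number 3 occurs in the knockout group alone, so the sgMTSS1_3 library adds nothing to this contrast, which rests on numbers 1 and 2. Numbers 1 and 2 occur in both groups, but nothing in the labels pairs them, and the difference between numbers 1 and 2 in control correlated with that in knockout pools across genes at r = 0.17. Whether samples of the same number were handled together is not known. Under the block *CDKN2A* (1.31, adjusted p = 0.0488) passed as well. *E2F6* passed without a filter (1.298, adjusted p = 0.0465) and with DESeq2 (1.18, adjusted p = 0.0481). *CDC25A* passed without a filter (1.22, adjusted p = 0.0388) and with at least 10 counts in every library (1.15, adjusted p = 0.0485). The fit without a filter called 1173 of 27328 genes higher, beside 600 of 14391 with the filter, and its median log2-fold change was 0.113. Over all 12 alternatives the adjusted p ran from 0.0414 to 0.191 for *E2F6*, from 0.0215 to 0.199 for *CDC25A*, and from 0.0168 to 0.465 for *CDKN2A*.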

Other observations

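Of the other genes of the wider lists without overlap between the groups, 3 are given, chosen after their values were seen. Lack of overlap was common, at 41.4% of all tested genes. In the lists it held for 2 of 6 other cyclin, CDK, and inhibitor genes and for 5 of 12 pocket protein and E2F genes. It also held for 2 of 5 CDK-activating, 4 of 9 ubiquitin ligase, and 6 of 12 S phase genes. *E2F3*, an activator of the E2F family, stood at 113 and 96.3 CPM in control and at 216, 168, and 233 CPM in knockout pools, log2-fold change 0.97, edgeR adjusted p = 0.0964. *E2F8*, an E2F repressor, stood at 25.0 and 16.7 CPM in control and at 10.4, 11.2, and 5.92 CPM in knockout pools, log2-fold change −1.18, edgeR adjusted p = 0.11. *MCM4*, a further helicase subunit, stood at 375 and 380 CPM in control and at 168, 239, and 227 CPM in knockout pools, log2-fold change −0.84, edgeR adjusted p = 0.132. None of the 3 passed.

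Low counts at genes whose 3′ ends are overlapped on the opposite strand were not particular to *CDK4*. *MCM2*, a helicase subunit gene, had 3 and 2 counts in control and 4, 1, and 5 in knockout libraries, and *TYMS*, the gene of thymidylate synthase, had 3 and 2 counts in control and 12, 10, and 7 in knockout libraries. All of the last 500 bases of both genes are overlapped, by a long noncoding RNA and by *ENOSF1*, respectively. Protein-coding genes of the table were counted if they had a full 500-base window without same-strand exons of another gene. Of these, 438 had this window fully covered by opposite-strand exons, and 24.0% of the 438 had fewer than 10 counts in every library. The share was 22.4% of the 1332 genes with part of the window covered and 20.2% of the 12361 genes with none, with median summed counts of 152, 224, and 331, respectively. *RBL2*, whose window is also fully covered, by *AKTIP*, was tested, at 12.8 and 8.64 CPM in control and 9.60, 10.5, and 7.48 CPM in knockout pools.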
